A study of Mus musculus with 18 samples.

Results

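Mouse bone marrow stromal cells (BMSCs) that had spent 4 days in culture medium with 20 ng/ml FGF9 (CM_F9, 3 samples) were compared with BMSCs in the same medium without FGF9 (CM, 3 samples). The comparison uses 6 of the 18 RNA-seq libraries of the series and covers every gene with enough reads to test, 17631 of the 56691 genes deposited. All cells were of wt genotype. Per the study's methods they grew out of collagenase-treated compact bone after the marrow had been flushed out, and were kept for at most 3 passages, so they are a mixed primary culture and not a clone. The other 12 libraries come from cells in osteogenic medium (OI_F9 and OI) and adipogenic medium (AI_F9 and AI), again with and without FGF9 and 3 samples each. They share in the estimate of the spread and serve here to show where the FGF9 effect in CM differed. The study describes its replicates as biological and its RNA-seq as 3 independent analyses. Neither it nor the labels say whether they came from separate mice or which samples shared an experiment. The p values therefore reflect only how these samples vary.

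FGF9 is a secreted fibroblast growth factor of the skeleton that binds FGF receptors together with heparan sulfate on the cell surface. The activated receptors signal through RAS and ERK, through PI3K and AKT and through phospholipase C, and the cells answer by making inhibitors of the same pathway, the Sprouty and Spred proteins and the phosphatase DUSP6. In bone, FGF signaling bears on the growth and maturation of osteoblasts and on the hormone FGF23, with which bone cells control phosphate.

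FGF9 changed 10.7% of the genes tested, in both directions in like number. By edgeR's quasi-likelihood test, 969 genes were higher and 909 lower in CM_F9 than in CM, 5.5% and 5.16% of the genes tested. These are the genes with a change of 2-fold or more and a p of 0.05 or less after Benjamini-Hochberg adjustment, called DEGs below, and rose and fell are used of them alone. Counts of genes that rose or fell in the lists below are to be read against these 5.5% and 5.16%. The lists were chosen with earlier results of these data known, so a share above these is no test of a list. By the adjusted p alone 3253 genes were higher (18.5%) and 3324 lower (18.9%). Changes of at least 4-fold were found for 373 genes that rose and 326 that fell, of at least 16-fold for 60 and 55, and of at least 64-fold for 15 and 13. The median log2 fold change was 1.72 among the genes that rose, -1.64 among those that fell and 0.02 among all genes tested. Of the 7983 genes that averaged 5 FPKM or more in CM_F9 or in CM, 639 were DEGs. The 3 CM_F9 libraries lay above all 3 CM libraries for 935 of the 969 genes that rose and below them for 878 of the 909 that fell, where among all genes tested 30.9% were separated upward and 19.8% downward. Levels are given in FPKM (reads per gene length and sequencing depth), in the order of replicates 1, 2 and 3, and fold changes come from the counts with TMM scaling. Single values in brackets after a gene are log2 fold changes of CM_F9 over CM.

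**Figure D1:**
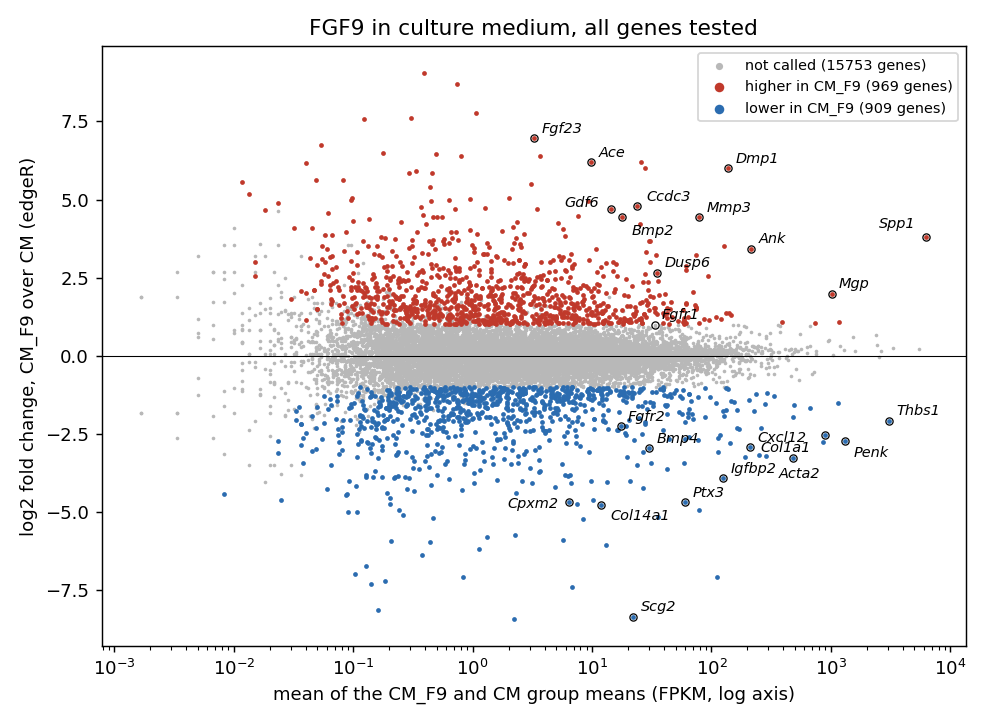
Log2 fold change of CM_F9 over CM (vertical axis) against the mean of both group means in FPKM (horizontal log axis) for the genes tested, 1 point a gene. The 969 red points are higher and the 909 blue points lower in CM_F9, the grey points were not called, and circles mark 24 labelled genes, from Fgf23 at a log2 fold change of 6.96 to Scg2 at -8.35.

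The 6 libraries held 16719561 to 20526502 counted reads. Between replicates of a group Pearson's r across genes was 0.991 to 0.994, and between CM_F9 and CM libraries 0.958 to 0.961, which describes likeness since genes are not independent. Messenger RNAs of the mitochondrial genome took 2.33%, 2.40% and 2.45% of the counts in CM_F9, against 1.89%, 1.96% and 1.89% in CM, with a two-sided exact permutation p of 0.1, the smallest that 3 against 3 can give. Spp1 alone took 1.94% of the counts in CM_F9, against 0.135% in CM, and, since FPKM divides by gene length, 4.53% of all FPKM in CM_F9, against 0.334% in CM.

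Of the surface markers by which the study defines its cells, Itgb1 (CD29), Cd44, Ly6a (Sca-1) and Pdgfra (CD140a) were all expressed, and the last 3 were higher with FGF9. Ly6a had 202, 212 and 198 FPKM in CM_F9, against 75.9, 73.6 and 76.4 FPKM in CM (log2 fold change 1.38), and Pdgfra 60.7, 60.1 and 58.9 FPKM in CM_F9, against 27.8, 28.8 and 28.9 FPKM in CM (1.01). The call of Pdgfra was lost without CM replicate 1. Itgb1 averaged 319.6 ± 3.48 FPKM in CM_F9 and 385 ± 10.2 FPKM in CM (SD, n = 3). Of the negative markers, Pecam1 stayed below 1 FPKM in each library, while Cd34 averaged 15.2 FPKM in CM_F9 and 10.9 FPKM in CM and Ptprc (CD45) 2.26 FPKM in CM_F9 and 3.62 FPKM in CM. Macrophage markers were present in both groups. Lyz2, the lysozyme of myeloid cells, had 282, 266 and 316 FPKM in CM_F9, against 307, 223 and 365 FPKM in CM, and overlapped between the groups. Csf1r, the receptor of the macrophage growth factor, had 10.8, 11.2 and 11.3 FPKM in CM_F9, against 24.6, 16.5 and 28.6 FPKM in CM (-1.12). The summed level of 23 macrophage genes was 607 to 717 FPKM in CM_F9 and 634 to 1057 FPKM in CM, highest in CM replicate 3. Of the 23, Cd163 rose and Csf1r, Adgre1 and Aif1 fell, and 16 were lower by the adjusted p alone. Without CM replicate 3 none was called lower, without CM replicate 2 the falls numbered 5 and Cd163 was not called, and without CM_F9 replicate 2 the rises numbered 3. The smaller lists stood lower, with sums of 8.81 to 9.79 FPKM in CM_F9 and 10.7 to 13.9 FPKM in CM for 15 endothelial genes, and of 10.6 to 15.6 FPKM in CM_F9 and 10.2 to 18.4 FPKM in CM for 18 granulocyte, lymphocyte and erythroid genes, of which the 4 haemoglobin genes, Cd3e and Ms4a1 were at 0 in all 6 libraries. In bulk RNA, fewer cells of a type and less RNA in each of them cannot be told apart, here and below. The part of the macrophages in the other results was not tested.

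2 of the CM_F9 libraries stood apart in sets of immune genes. The summed level of 35 interferon-stimulated and antigen presentation genes was 1121, 1389 and 901 FPKM in CM_F9, against 858, 835 and 924 FPKM in CM, so that CM_F9 replicate 2 was the highest and replicate 3 lay within the range of CM. Ifi204, an interferon-induced sensor of DNA, had 23.6, 28.9 and 21.1 FPKM in CM_F9, against 5.18, 5.94 and 6.18 FPKM in CM (2.03, adjusted p = 3.05e-09), with no overlap. Ifi44 had 4.38, 9.70 and 1.55 FPKM in CM_F9, against 1.16, 1.93 and 1.11 FPKM in CM, and overlapped, since replicate 3 lay at the level of CM. The test called 5 of the 35 higher, Mx1, Ifi204, Rsad2, Ifi44 and Ifi203. It called 1 without CM_F9 replicate 2, 15 without CM_F9 replicate 3, and 2, 3 and 2 without CM replicates 1, 2 and 3, and without replicate 2 the log2 fold changes of Mx1 and Rsad2 turned negative. It called 12 in a fit of the 6 libraries alone and 13 without the filter on low counts. DESeq2 called 2, but not Ifi44, Mx1 (adjusted p = 0.132) or Rsad2 (adjusted p = 0.128), and limma on FPKM called 2 and none of these 3 genes. Rsad2 also lost its call in edgeR with the 6 libraries alone (adjusted p = 0.0887), with the replicate block (0.0752), with median-of-ratios size factors (0.0507) and with a stricter filter (0.0503). Cd74, H2-Aa and H2-Ab1, antigen presentation genes of the macrophage list singled out after their values were seen, summed to 4.21, 0.54 and 17.2 FPKM in CM_F9, against 2.27, 2.21 and 3.15 FPKM in CM. None of the 12 largest rises and 12 largest falls below lost its call when any one of the 6 libraries was left out. These were picked for size and for lack of overlap in the same libraries, so that outcome was nearly fixed beforehand. It says nothing of other genes.

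**Figure D2:**
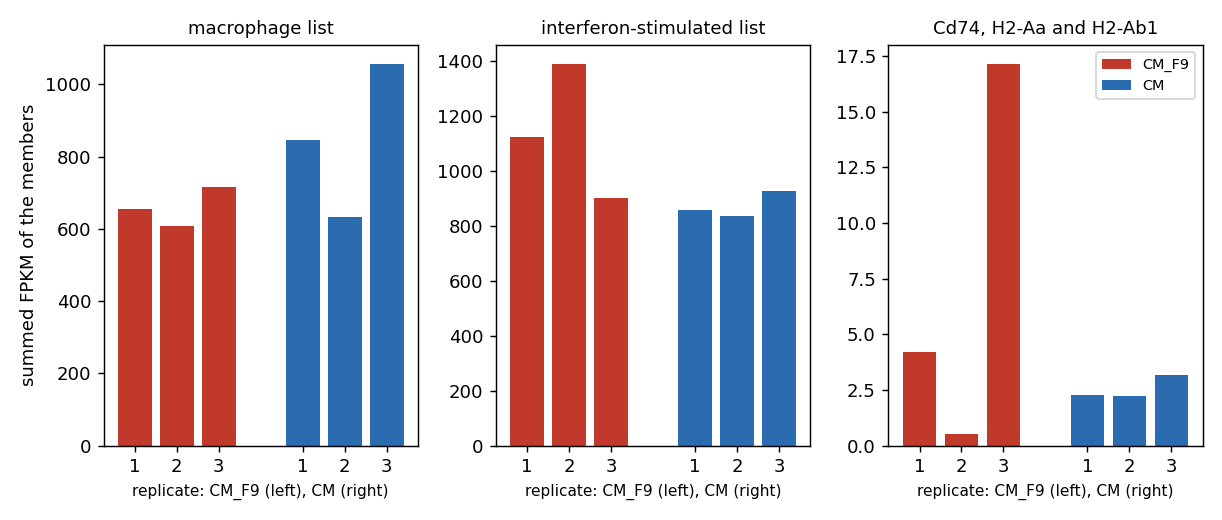
Summed FPKM of the macrophage list, of the interferon-stimulated list and of 3 antigen presentation genes in each library (bars, replicates 1 to 3), with the CM_F9 libraries in red left of the CM libraries in blue. CM replicate 3 is highest for macrophage genes (1057 FPKM), CM_F9 replicate 2 for interferon-stimulated genes (1389 FPKM) and CM_F9 replicate 3 for the antigen presentation genes (17.2 FPKM).

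The receptors moved apart. Fgfr2 fell to 6.14, 6.54 and 6.04 FPKM in CM_F9, against 27.6, 29.2 and 28.8 FPKM in CM (a log2 change of -2.25 with SE 0.06 and adjusted p = 3.51e-19), and Fgfr3 fell as well (-2.17) at low levels, 0.537 FPKM in CM_F9 and 2.33 FPKM in CM. Fgfr1, the most abundant receptor in CM_F9 but below Fgfr2 in every CM library, had 45.6, 45.7 and 44.3 FPKM in CM_F9, against 20.4, 20.9 and 24.03 FPKM in CM, with no overlap, and its log2 fold change of 0.99 (adjusted p = 3.94e-12) lay just under the threshold of a DEG and reached 1.05 without CM replicate 3. Klb, the co-receptor of the hormone-like FGFs, rose (2.51) and stayed under 0.2 FPKM. Of 7 measured receptors, co-receptors and docking proteins, 1 rose and 2 fell.

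FGF9 itself was hardly transcribed, with means of 0.103 FPKM in CM_F9 and 0.0333 FPKM in CM, too few reads to test. Of 12 other measured genes of the FGF ligand list, which holds the relatives that stay in the cell and a binding protein, 4 rose and 5 fell. Fgf2, a ligand that also acts inside the cell, had 44.6, 44.04 and 43.7 FPKM in CM_F9, against 11.8, 13.1 and 11.5 FPKM in CM (1.80, SE 0.06, adjusted p = 1.11e-16). Fgf10, known for its signals from mesenchyme to epithelium, had 18.9, 18.3 and 17.7 FPKM in CM_F9, against 3.63, 4.06 and 3.09 FPKM in CM (2.29). Fgf1, which can bind all FGF receptors, had 4.15, 4.66 and 5.15 FPKM in CM_F9, against 0.15, 0.12 and 0.83 FPKM in CM (3.58), and CM replicate 3 stood above the other CM libraries. Fgf23 was the fourth. Fgf7, at 49.3 FPKM in CM_F9 and 73.1 FPKM in CM, was the most abundant of the list in CM and was below the fold threshold (-0.63). Among the falls, Fgf14 fell by 1.41 on the log2 scale, and Fgf21, a metabolic hormone, had 0 reads over the CM_F9 libraries, against 12 over the CM libraries, which makes it at least 3.68-fold lower against a floor of 3 counts over the group.

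Most feedback inhibitors of FGF signaling rose. Of 12 measured Sprouty, Spred, DUSP and related inhibitors of ERK signaling, 9 rose and none fell, with a median log2 fold change of 1.27, where it was 0.02 over all genes tested. Spry4 had 19.7, 18.8 and 21.1 FPKM in CM_F9, against 1.89, 1.88 and 1.52 FPKM in CM (3.43, SE 0.09, adjusted p = 4.18e-19). Dusp6, the ERK phosphatase, had 58.4, 59.9 and 64.7 FPKM in CM_F9, against 10.5, 7.56 and 9.69 FPKM in CM (2.66). Every CM_F9 library lay far above every CM library for both. Spry2 (2.36), Spry1 (2.08) and Spred1 (1.29) followed, while Dusp5 (0.88) and Dusp7 (0.44) did not reach the fold threshold. Of 7 other dual-specificity phosphatases none rose, and Dusp8 fell (-1.41). The count of feedback inhibitors was 8 to 10 under each alternative tried.

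The transcription factors that answer to ERK were higher only in part. Of 25 measured ETS, EGR, AP-1 and other early response genes 7 rose and 1 fell, a fall that was not called without CM_F9 replicate 1 or 2 or CM replicate 1 or 3. Etv1, an ETS factor of the PEA3 group, had 11.2, 11.9 and 11.2 FPKM in CM_F9, against 1.29, 1.25 and 1.38 FPKM in CM (3.07). Etv4 of the same group had 12.2, 11.2 and 10.3 FPKM in CM_F9, against 1.61, 1.90 and 2.06 FPKM in CM (2.54). Etv5, the remaining PEA3 factor, rose by 1.59. Jun, the partner of FOS in the AP-1 factor, had 67.8, 67.8 and 64.1 FPKM in CM_F9, against 25.1, 20.5 and 21.9 FPKM in CM (1.50, adjusted p = 7.31e-15). Egr1, an early gene of growth factor signaling, was spread more widely, with 41.6, 49.8 and 79.8 FPKM in CM_F9, against 47, 20.1 and 19.02 FPKM in CM, where replicate 1 reached the level of CM_F9 (0.93, a DEG without CM_F9 replicate 1 or 2 or CM replicate 1). Errfi1, which blocks the EGF receptor, rose to 99.5, 101 and 123 FPKM in CM_F9, against 14.7, 13.1 and 14.5 FPKM in CM (2.87). Phlda1 rose by 2.16.

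**Figure D3:**
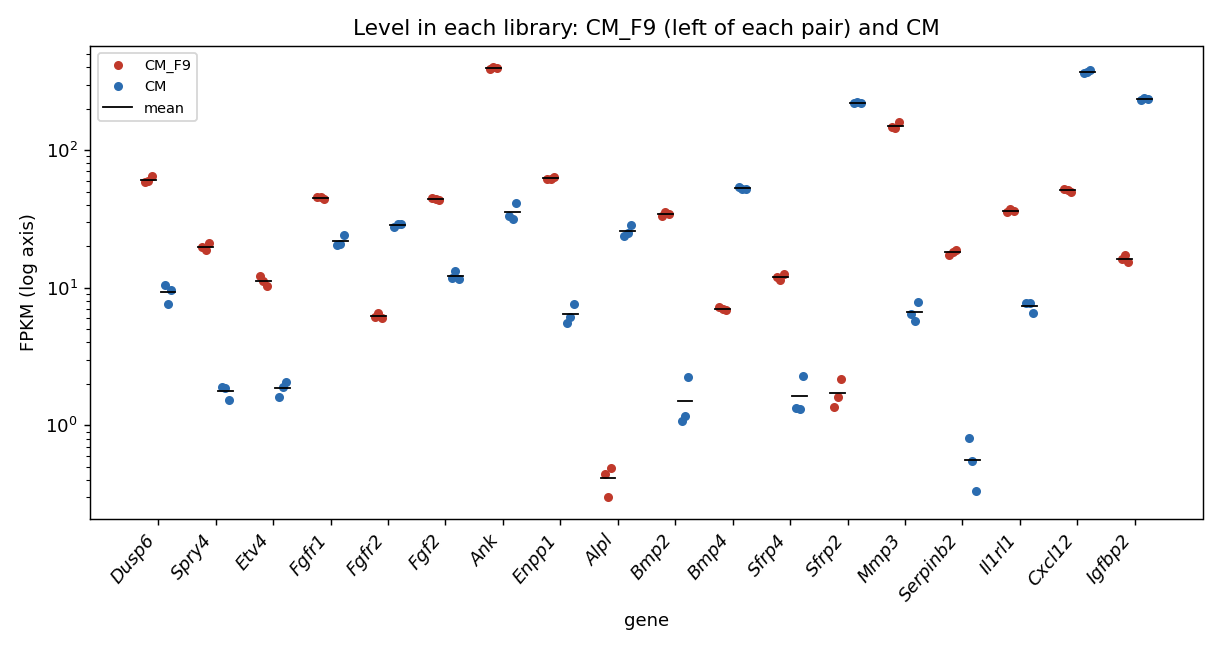
FPKM of 18 genes in each library (log axis), with the 3 CM_F9 libraries (red) left of the 3 CM libraries (blue) for each gene and a bar at each mean. No gene of the 18 overlaps between the groups, and the spread within a group is small beside the distance between them, as for Ank, Bmp4 and Cxcl12.

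Among the 12 largest rises and falls, several genes are secreted proteins. Ccdc3, a secreted protein of fat and blood vessels, had 46.7, 45.8 and 46.2 FPKM in CM_F9, against 1.85, 1.55 and 1.42 FPKM in CM (log2 change 4.79, SE 0.09, adjusted p = 5.58e-21). Gdf6, a growth factor of joints and skull sutures, had 27.4, 28.6 and 27.4 FPKM in CM_F9, against 1.09, 0.98 and 0.99 FPKM in CM (4.70). Pcdh20, a protocadherin, rose by 4.71, and Prl2c2, a placental prolactin relative known as proliferin, by 4.48, though the near-identical genes of its family may exchange reads. On the other side, Ptx3, a soluble pattern recognition protein, fell to 5.24, 4.66 and 4.17 FPKM in CM_F9, against 118, 109 and 122 FPKM in CM (-4.69, SE 0.10, adjusted p = 4.09e-20). Col14a1, a collagen on the surface of fibrils, fell to 0.93, 0.69 and 1.01 FPKM in CM_F9, against 21.9, 23.6 and 23.4 FPKM in CM (-4.78). Cpxm2, a carboxypeptidase-like protein, was -4.69 on the log2 scale. Penk, the precursor of the enkephalin peptides and one of the 10 most abundant transcripts of CM, fell to 352, 350.2 and 378 FPKM in CM_F9, against 2262, 2319 and 2231 FPKM in CM (-2.72). Mgp, an inhibitor of calcification, had 1605, 1584 and 1719 FPKM in CM_F9, against 373, 379.9 and 437 FPKM in CM (1.98). Genes with at least 5 FPKM in 1 of CM_F9 and CM and under 0.5 FPKM in the other numbered 7 in each direction. Cyp2f2, a cytochrome P450 best known from lung, was one of those that rose, with 9.84, 9.07 and 10.5 FPKM in CM_F9, against 0.46, 0.36 and 0.65 FPKM in CM.

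Of 12 measured genes of pyrophosphate and phosphate transport and turnover, 6 rose, 5 were not called and Alpl, the alkaline phosphatase that removes pyrophosphate, fell, with a median log2 fold change of 1.46. Ank, which exports pyrophosphate, an inhibitor of mineral growth, had 387, 399.5 and 399 FPKM in CM_F9, against 33.1, 31.5 and 41.5 FPKM in CM (3.42, SE 0.07, adjusted p = 2.43e-20). Enpp1, which makes pyrophosphate outside the cell, had 61.6, 62.05 and 63.4 FPKM in CM_F9, against 5.55, 6.08 and 7.67 FPKM in CM (3.22). Slc20a1, a phosphate carrier, had 48.6, 50.1 and 47.2 FPKM in CM_F9, against 11.9, 10.8 and 14.3 FPKM in CM (1.92). No CM_F9 library overlapped with CM for any of the 3, and CM replicate 3 was the highest of CM in each. Enpp2, which makes lysophosphatidic acid, rose by 2.27, and Slc20a2 (0.57) was below the fold threshold. Of 11 measured osteocyte genes, 6 rose and 2 fell. Of the 2 falls, which are not described here, 1 reached a log2 fold change of -2.80. Beside Fgf23 and Dmp1, Phex, the endopeptidase of phosphate balance, had 6.05, 7.15 and 6.74 FPKM in CM_F9, against 0.68, 1 and 0.71 FPKM in CM (2.997), podoplanin (Pdpn) rose by 1.50 and the secretory kinase Fam20c by 1.32. Tnfrsf11b, osteoprotegerin, had means of 27.5 FPKM in CM_F9 and 47.6 FPKM in CM (-0.85, not a DEG). Of 16 measured skeletal transcription factors only Dlx3 rose (3.07), or 6.2% against 5.5% of all genes, and none fell. Dlx5 had 3.38, 4.22 and 3.09 FPKM in CM_F9, against 5.20, 5.96 and 6.16 FPKM in CM (-0.75, adjusted p = 8.32e-05), and Atf4 was -0.45.

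The collagen matrix was lower, but not every kind of collagen. Of 11 fibrillar collagens 9 fell and none rose, with a median log2 fold change of -1.74, and Col1a1 fell to 273, 274 and 266 FPKM in CM_F9, against 1506, 1524 and 1522 FPKM in CM (-2.55, SE 0.07, adjusted p = 1.24e-18). Col24a1 (0.70) and Col5a3 (-0.42) were the 2 that were not DEGs. Among 30 other collagens 7 rose and 10 fell. Col10a1, the collagen of hypertrophic cartilage, had 60.5, 56.6 and 55.1 FPKM in CM_F9, against 4.04, 3.80 and 4.97 FPKM in CM (3.69), and Col18a1, a collagen of basement membranes, had 27.4, 28.4 and 28.5 FPKM in CM_F9, against 5.04, 3.79 and 4.83 FPKM in CM (2.56). Col12a1 (-3.26) and Col8a2 (-3.63) fell. The lysyl oxidases, which crosslink collagen, diverged. Lox fell to 231, 230.2 and 219.6 FPKM in CM_F9, against 1528, 1549 and 1382 FPKM in CM (-2.77), while Loxl3 had 109, 112 and 109.8 FPKM in CM_F9, against 34.1, 34.9 and 34.6 FPKM in CM (1.61).

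Of 16 small leucine-rich proteoglycans, which bind collagen fibrils, 9 fell and none rose (median -1.12), among them Omd (-3.43), Fmod (-3.22) and Aspn (-2.33), while lumican (Lum) had means of 61.9 FPKM in CM_F9 and 52.5 FPKM in CM (0.17). Of 25 matricellular genes 6 rose and 11 fell. Thbs1, thrombospondin 1, had 1213, 1218 and 1181 FPKM in CM_F9, against 4831, 5168 and 4691 FPKM in CM (-2.09). Of the CCN family, Ccn2 (-1.78), Ccn4 (-2.47) and Ccn5 (-2.78) fell and Ccn1 (-0.40) was not a DEG. Among 18 elastic fibre genes, Eln (-4.08) and Fbn2 (-2.41) fell, whereas Efemp1 (2.05) and Ltbp1 (1.69) rose. Itih2, a heavy chain that binds hyaluronan, had 52.8, 50.05 and 53.5 FPKM in CM_F9, against 4.63, 5.83 and 4.64 FPKM in CM (3.31). Fn1, fibronectin, among the 10 most abundant transcripts of both groups, had 2948, 3074 and 2891 FPKM in CM_F9, against 1830.0, 1894 and 1669 FPKM in CM, an increase below the fold threshold (0.66).

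Proteases and their inhibitors include some of the largest changes. Of 21 measured matrix metalloproteinases and tissue inhibitors 4 rose and 2 fell, of which 1 fall was lost without CM_F9 replicate 2 or 3 or CM replicate 1. Mmp3, stromelysin 1, had 148, 144 and 161 FPKM in CM_F9, against 6.39, 5.71 and 7.87 FPKM in CM (4.44, SE 0.12, adjusted p = 6.03e-19). Mmp10, stromelysin 2 from the same region of chromosome 9, had 7.14, 7.05 and 7.36 FPKM in CM_F9, against 0.09, 0.09 and 0.06 FPKM in CM (6.39). Mmp13, a collagenase of that region and the most abundant of the 3, had 276, 269.9 and 293 FPKM in CM_F9, against 207, 217 and 217 FPKM in CM (0.33, not a DEG). Timp2, an inhibitor of these enzymes, had 1617, 1604 and 1634 FPKM in CM_F9, against 714, 734 and 736 FPKM in CM (1.09), and Timp3 rose by 1.18. Serpinb2, an inhibitor of plasminogen activators, had 17.2, 18.3 and 18.7 FPKM in CM_F9, against 0.81, 0.55 and 0.33 FPKM in CM (4.94). Serpine2, an inhibitor of thrombin and urokinase, rose by 1.53. All 20 measured serpins divided into 5 that rose, 5 that fell and 10 that were not called.

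Stromelysin genes are known targets of AP-1, the factor of JUN and FOS proteins, which best binds TGACTCA and TGAGTCA. The motif searched was TGANTCA, a looser string with any middle base. Serpinb2 and Igf1 hold it as TGAATCA, and the shares below count all such strings. The 100 bases before the start of 4 strongly raised genes and of 2 lowered genes of the IGF system are shown. They were picked because they hold this motif, and a part of AP-1 in their change was not tested. The sequences are those of RefSeq on GRCm38.p6, on the plus strand and 5′ to 3′, with the motif in capitals, which reads the same on both strands and was the only motif searched.
Mmp10: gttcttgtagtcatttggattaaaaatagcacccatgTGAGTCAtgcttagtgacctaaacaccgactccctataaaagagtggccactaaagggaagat
Mmp3: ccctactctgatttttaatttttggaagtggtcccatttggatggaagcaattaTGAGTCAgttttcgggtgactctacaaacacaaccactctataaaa
Serpinb2: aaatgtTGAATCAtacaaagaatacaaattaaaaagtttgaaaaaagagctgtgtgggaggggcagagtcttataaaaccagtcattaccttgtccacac
Galnt15: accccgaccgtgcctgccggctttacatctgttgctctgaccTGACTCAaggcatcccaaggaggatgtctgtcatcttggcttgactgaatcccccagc
Igfbp2: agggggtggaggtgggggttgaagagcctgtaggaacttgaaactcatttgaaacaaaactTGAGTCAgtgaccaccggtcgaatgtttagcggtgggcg
Igf1: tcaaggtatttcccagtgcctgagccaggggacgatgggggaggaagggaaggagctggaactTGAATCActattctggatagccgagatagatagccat
They lie at chr9:7502242-7502341 (Mmp10), chr9:7445722-7445821 (Mmp3), chr1:107511323-107511422 (Serpinb2), chr14:32029003-32029102 (Galnt15), chr1:72825287-72825386 (Igfbp2) and chr10:87861011-87861110 (Igf1). Of the genes matched by symbol to a window from 250 bases before to 50 after a start, at least 1 window held the motif for 90 of 636 genes that rose (14.2%), 49 of 597 that fell (8.21%) and 669 of 10689 that were not called (6.26%), and among all 32851 windows of the table it was 7.81%. Of the 12 largest rises 8 had a window and 3 of these held it, and of the 12 largest falls 11 had a window and none held it. Within the last 100 bases before a start the motif was held by 6.29% of the genes that rose and 2.85% of those that fell. The share was 2.22% for genes not called and 2.73% over all windows. Serpinb2 and Igfbp2 have 2 windows each, of which 1 that holds the motif is shown. A match is a string of letters and not a binding site, Mmp13 holds one too, and genes with several starts have more windows in which to match.

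WNT signaling genes changed in opposite directions within each class. Of 10 measured secreted antagonists 4 rose and 3 fell, and of these Sfrp2 fell the most (-7.08). Sfrp4, a binder of WNT proteins, had 11.98, 11.3 and 12.6 FPKM in CM_F9, against 1.34, 1.31 and 2.27 FPKM in CM (2.80, adjusted p = 9.14e-14), while its relative Sfrp1 fell to 5.81, 5.41 and 5.47 FPKM in CM_F9, against 25.6, 27.9 and 29.02 FPKM in CM (-2.37). Notum, an enzyme that inactivates WNT proteins, had 3.91, 4.45 and 4.72 FPKM in CM_F9, against 0.28, 0.15 and 0.47 FPKM in CM (3.79). Apcdd1 rose as well (1.82), and Dkk3, the most abundant antagonist, had means of 178 FPKM in CM_F9 and 181 FPKM in CM. Of 11 WNT ligands, Wnt7b (3.55), Wnt10b (1.48) and Wnt11 (1.03) rose and Wnt16 (-3.15) and Wnt4 (-2.12) fell, all but Wnt10b under 2 FPKM in every library. Wnt11 was not called without CM replicate 1. Of 20 receptors and R-spondins, which strengthen WNT signals, 10 fell and 2 rose (median -0.98). Rspo2 fell to 13.6, 12.7 and 13.5 FPKM in CM_F9, against 65.7, 67.4 and 63.4 FPKM in CM (-2.37), and Rspo3 (-3.08), Fzd8 (-2.70) and Lgr5 (-3.99) fell too. Of 13 common targets of the pathway, 4 rose, among them Axin2 with 2.20, 2.65 and 2.22 FPKM in CM_F9, against 0.35, 0.60 and 0.63 FPKM in CM (2.10), and 3 fell, among them Nkd1 (-3.47).

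The main BMP ligands changed in opposite directions. Bmp2 had 33.5, 35.6 and 34.4 FPKM in CM_F9, against 1.08, 1.16 and 2.26 FPKM in CM (4.45, SE 0.17, adjusted p = 4.66e-16), and Bmp4 fell to 7.24, 7 and 6.92 FPKM in CM_F9, against 53.8, 52.5 and 52.3 FPKM in CM (-2.97, SE 0.09, adjusted p = 3.66e-18). Neither overlapped, and CM replicate 3 was the highest of CM for Bmp2. Of 20 measured BMP, GDF and activin ligands 7 rose and 4 fell, Bmp7 (3.95) and Inhbb (1.88) among the rises. Of 15 antagonists, Grem1, which binds BMP2 and BMP4, had 193, 196 and 195 FPKM in CM_F9, against 70.1, 72.5 and 73.3 FPKM in CM (1.37), while Nog (-2.48) and Chrdl1 (-3.81) fell. The common targets of BMP signaling moved little. Of 12 ID and SMAD genes 1 fell, Id4 (-1.86), and Id1 had means of 43.04 FPKM in CM_F9 and 25.2 FPKM in CM (0.71), Id3 of 71.1 FPKM in CM_F9 and 73.9 FPKM in CM.

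The IGF system was lower in most of its members that were DEGs. Of 15 measured genes 6 fell and 2 rose. Igfbp2, a binding protein of IGF1, fell to 16.04, 17.4 and 15.3 FPKM in CM_F9, against 233, 238 and 237 FPKM in CM (-3.92, SE 0.08, adjusted p = 1.93e-20). Igf1 fell to 7.27, 6.81 and 6.75 FPKM in CM_F9, against 32.1, 32.5 and 29.8 FPKM in CM (-2.24), and the proteases that release it, Pappa (-2.78) and Pappa2 (-3.16), fell with it, while Igfbp6 was at 97.8 FPKM in CM_F9 and 79.3 FPKM in CM. Of 17 Notch genes 4 fell, among them the ligand Jag1 (-2.10) and the target Hey1 (-2.56), and 2 rose, a count of 0 to 1 when any one of the 6 libraries was left out. Of 10 hedgehog genes, Hhip, which binds and inhibits hedgehog proteins, rose to 1.38, 1.34 and 1.40 FPKM in CM_F9, against 0.11, 0.06 and 0.09 FPKM in CM (3.97), and Gas1 (-1.41) and Gli2 (-1.27) fell.

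Signals to other cells of the marrow changed as well. Cxcl12, the chemokine that holds blood stem cells in the marrow, fell to 52.4, 51.4 and 49.3 FPKM in CM_F9, against 363, 369.8 and 382 FPKM in CM (-2.93, SE 0.06, adjusted p = 1.09e-20). Its scavenger receptor Ackr3 fell by 1.72 on the log2 scale. Lepr, the leptin receptor that marks perivascular marrow stroma, had 4.21, 4.27 and 4.23 FPKM in CM_F9, against 0.58, 0.70 and 0.67 FPKM in CM (2.64). Of 19 niche genes 3 rose, Spp1 (3.79), Lepr and Kitl, and 3 fell, 15.8% each way against 5.5% and 5.16% of all genes. Kitl, stem cell factor, chosen after its values were seen, had 56.9, 58.2 and 55.4 FPKM in CM_F9, against 20.3, 23.3 and 20.1 FPKM in CM (1.36), and beside Cxcl12 the falls were Angpt1 (-1.36) and Jag1. Of 25 cytokine and receptor genes 6 rose and 2 fell. Il1rl1, the receptor of interleukin 33, had 35.4, 37.2 and 35.9 FPKM in CM_F9, against 7.72, 7.79 and 6.54 FPKM in CM (2.24, adjusted p = 3.32e-17), and Il33 itself 17.3, 16.6 and 14.7 FPKM in CM_F9, against 4.42, 4.53 and 5.18 FPKM in CM (1.72). Tslp, an alarmin of epithelia and stroma, had 51.3, 50.2 and 63.9 FPKM in CM_F9, against 0.81, 0.62 and 1.02 FPKM in CM (5.996). Of 26 chemokine genes 5 rose and 6 fell. Ccl2, which attracts monocytes, had 32.6, 34.05 and 41.99 FPKM in CM_F9, against 19.5, 10.4 and 15.6 FPKM in CM (1.19), a call lost without CM replicate 2. Of 21 complement genes 3 rose, among them Cfd (3.25) and Masp1 (2.35), and Clu (-1.10) and Cd59a (-1.47) fell.

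Enzymes and receptors of small mediators of vessels were among the changed genes. Ptgs1, cyclooxygenase 1, had 29.3, 27.6 and 27.6 FPKM in CM_F9, against 3.65, 3.05 and 3.94 FPKM in CM (2.93, SE 0.08, adjusted p = 4.55e-19). The prostacyclin receptor Ptgir rose by 2.46, the prostaglandin E synthase Ptges by 1.47 and the phospholipase Pla2g4a by 1.09, in a list of 22 in which 6 rose and 3 fell, or 1 without CM replicate 3. Ace, the angiotensin-converting enzyme, had 20.4, 19.1 and 18.9 FPKM in CM_F9, against 0.35, 0.24 and 0.17 FPKM in CM (6.20). The angiotensin receptors went opposite ways, as Agtr2 rose to 12.8, 13.1 and 11.8 FPKM in CM_F9, against 1.30, 1.55 and 1.87 FPKM in CM (2.93), and Agtr1a fell (-2.22). Npr3, the clearance receptor of natriuretic peptides, fell to 2.79, 2.60 and 2.12 FPKM in CM_F9, against 39.03, 41.1 and 36.7 FPKM in CM (-4.02). In all, 5 of 13 genes of the angiotensin and natriuretic peptide systems rose and 2 fell.

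Adhesion and guidance genes were divided. Of 23 cadherins and protocadherins 10 rose and 4 fell, with Pcdh9 (1.89), Pcdh7 (1.33) and Cdh13 (1.16) higher and Cdh2, N-cadherin, lower (-1.21). Cdh11, the main cadherin of these cells, had 167, 170.2 and 169.8 FPKM in CM_F9, against 162, 175 and 171 FPKM in CM. Of 21 integrin genes 6 rose and 5 fell. Itga6, a laminin receptor, rose by 1.92, and the collagen receptors Itga11 (-2.12), Itga1 (-2.36) and Itga2 (-2.91) fell. Of 63 axon guidance genes 9 rose and 9 fell. Sema7a, a membrane-bound semaphorin, had 57.04, 54.99 and 54.3 FPKM in CM_F9, against 3.15, 3.48 and 5.73 FPKM in CM (3.68), and Robo2 (-2.42) and Epha4 (-1.81) fell.

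Cytoskeletal genes were lower. Of 19 smooth muscle genes 13 fell and none rose. Of 16 cytoskeletal targets of the factor SRF 6 fell and none rose, with a median log2 fold change of -0.69, and 15 were lower by the adjusted p alone. Fhl1 fell to 6.11, 5.98 and 5.59 FPKM in CM_F9, against 34.98, 35.8 and 28.1 FPKM in CM (-2.55), and Acta1 (-3.81) and vinculin (Vcl, -1.09) fell too, while beta-actin (Actb) had 589, 589 and 645 FPKM in CM_F9, against 865, 796 and 849 FPKM in CM (-0.52, not a DEG). Of 24 genes of the Hippo pathway's YAP and TAZ factors and their targets, Ccn2, Ankrd1 (-1.82), Amotl2 (-1.59) and F3 (-1.15) fell and Wwtr1, which encodes TAZ, rose to 81.9, 80.1 and 81.97 FPKM in CM_F9, against 34.7, 36.8 and 35.4 FPKM in CM (1.13).

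**Figure D4:**
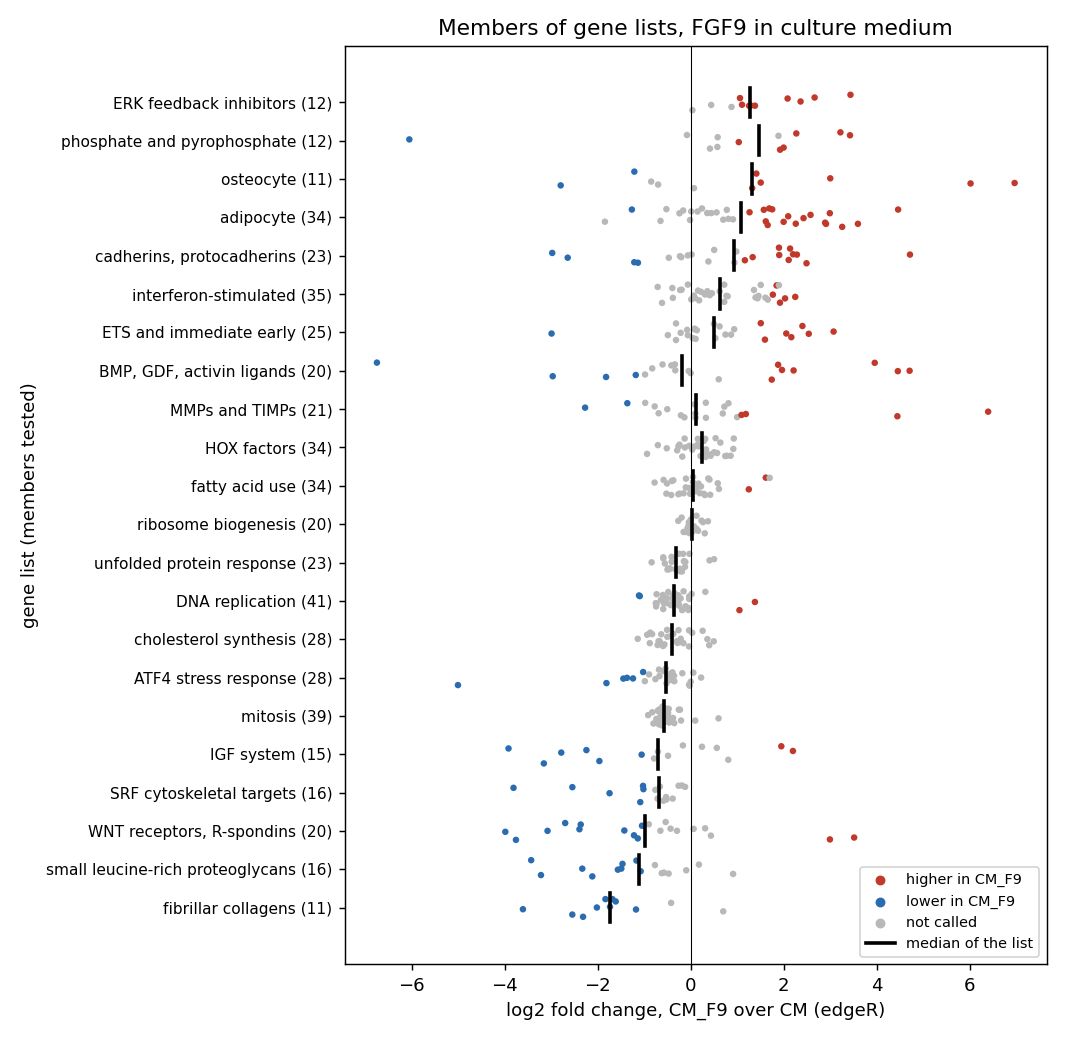
Log2 fold change of CM_F9 over CM for the tested members of 22 gene lists (rows, number of members in brackets), 1 point a gene, red for higher, blue for lower and grey for not called, with a black bar at each list's median. Medians run from 1.46 for phosphate and pyrophosphate genes to -1.74 for fibrillar collagens, and the mitosis list lies as a narrow group mostly below 0.

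Of 34 adipocyte genes 17 rose and 1 fell, and of 29 adipogenic transcription factors and regulators 4 rose and 1 fell. Pparg had 8.01, 8.48 and 8.83 FPKM in CM_F9, against 7.92, 8.46 and 8.93 FPKM in CM (-0.06), and overlapped fully. Cebpa had 28.7, 29.2 and 31.02 FPKM in CM_F9, against 17.3, 16.7 and 19.6 FPKM in CM (0.67, adjusted p = 1.72e-08), with no overlap and below the fold threshold. Prdm16 (1.75), Ebf2 (1.16), Nr4a2 (1.05) and Dlk1, an inhibitor of fat formation (1.70), rose and Ebf1 (-1.08) fell. Of these, Nr4a2 was not called without CM replicate 3, and without CM_F9 replicate 2 or CM replicate 1 the falls numbered 2. Cfd, adipsin, had 12.1, 10.2 and 13.9 FPKM in CM_F9, against 1.17, 0.95 and 1.48 FPKM in CM (3.25). Elovl7, an elongase of fatty acids, had 10.2, 11.4 and 11.8 FPKM in CM_F9, against 0.74, 0.61 and 0.86 FPKM in CM (3.85). Among 34 genes of fatty acid uptake and oxidation Fabp4 (1.61) and Acsl1 (1.25) rose and none fell, and no gene of 22 in the tricarboxylic acid cycle passed. The 5.9% of fatty acid genes that rose is near the 5.5% of all genes. Of 28 genes of glycolysis only Eno2 rose (1.22), or 3.6%, under the share of all genes. Pyruvate kinase (Pkm) had 311, 307 and 317 FPKM in CM_F9, against 189, 177 and 186 FPKM in CM (0.70).

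Genes of cell division, of stress responses and of cholesterol synthesis were mostly shifted by less than the fold threshold. None of 39 mitosis genes was a DEG, but 34 were lower and 1 was higher by the adjusted p alone, with a median log2 fold change of -0.57. Mki67, the proliferation marker, had 12.3, 12.3 and 12.8 FPKM in CM_F9, against 21.9, 16.7 and 21.4 FPKM in CM (-0.74, adjusted p = 1.11e-07). Of 41 DNA replication genes 26 were lower and 3 higher by the adjusted p (median -0.36), with E2f8 (1.38) and Cdt1 (1.05) rising and Rrm1 (-1.11) and E2f7 (-1.10) falling, of which Cdt1 was not called without CM replicate 2. These DEGs are 4.9% of the list in each direction, near the 5.5% and 5.16% of all genes. Ccnd1, cyclin D1, went the other way, with 207, 209 and 213 FPKM in CM_F9, against 79.7, 82.7 and 81.6 FPKM in CM (1.30, adjusted p = 7.36e-16). Of 28 genes of the ATF4 stress response 23 were lower by the adjusted p and 6 of them fell (median -0.53). Trib3, a pseudokinase induced by stress, fell to 2.37, 2.14 and 2.25 FPKM in CM_F9, against 8.71, 7.13 and 6.95 FPKM in CM (-1.81), and Chac1 (-1.45), Slc7a5 (-1.37) and Atf3 (-1.24) fell with it. Of 28 genes of cholesterol synthesis 17 were lower and 4 higher by the adjusted p, with Hmgcs1 at 16.3 FPKM in CM_F9 and 28.6 FPKM in CM (-0.87), and of 23 genes of the unfolded protein response 16 were lower and 2 higher. The background of these counts is the 18.5% higher and 18.9% lower by the adjusted p alone. Genes of ribosome biogenesis had a median of 0.02 with none called of 20, and of 34 HOX genes none was called (median 0.24).

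The effect of FGF9 in CM was set against that in the other media by testing the difference of log2 fold changes. Against OI, 287 genes differed (1.63% of those tested), 199 with a more positive (1.13%) and 88 with a more negative effect in CM (0.499%). Against AI, 2488 genes differed (14.1%), 1490 with a more positive (8.45%) and 998 with a more negative effect in CM (5.66%). Fndc1, a fibronectin domain protein, fell to 0.53, 0.40 and 0.45 FPKM in CM_F9, against 16.9, 17.7 and 14.9 FPKM in CM (-5.21), and was 0.963 ± 0.0851 FPKM in OI_F9 and 3.38 ± 0.403 FPKM in OI (-1.86, SD, n = 3 here and below), a difference of -3.36 (SE 0.17, adjusted p = 1.54e-11). Itga2 showed a difference of -2.37 from OI (adjusted p = 2.99e-08), with 1.02, 0.81 and 0.82 FPKM in CM_F9, against 6.40, 7.15 and 5.48 FPKM in CM, but 0.803 ± 0.0862 FPKM in OI_F9 and 1.13 ± 0.07 FPKM in OI. Cxcl5, a chemokine for neutrophils, fell in CM (-1.26) and was 6.003 ± 0.566 FPKM in OI_F9 and 4.06 ± 0.275 FPKM in OI (0.51), a difference of -1.77. In AI, where it averaged 0.07 ± 0.0458 FPKM in AI_F9 and 0.657 ± 0.214 FPKM in AI, Col10a1 fell (-2.96), against a rise of 3.69 in CM, a difference of 6.64 (SE 0.36, adjusted p = 9.77e-13). Nptx1, a pentraxin of synapses, had 51.4, 49.1 and 52.5 FPKM in CM_F9, against 0.59, 0.60 and 0.78 FPKM in CM, but 1.87 ± 0.108 FPKM in AI_F9 and 1.75 ± 0.141 FPKM in AI, a difference of 5.91 (adjusted p = 5.85e-17). Chrdl1, a BMP antagonist, fell to 0.87, 0.79 and 0.82 FPKM in CM_F9, against 10.8, 11.7 and 10.8 FPKM in CM, while it rose to 2.21 ± 0.0265 FPKM in AI_F9, against 1.11 ± 0.132 FPKM in AI (1.20). From OI, 9 of 34 adipocyte genes, 5 of 16 small leucine-rich proteoglycans, 4 of 19 smooth muscle genes and 3 of 11 osteocyte genes differed past both thresholds. The counts from AI were 18, 8, 8 and 7 for these lists. Of 39 mitosis and 28 cholesterol genes 28 and 14 differed from AI and none from OI, where the 1.63% of all genes would come to fewer than 1 gene in either list.

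**Figure D5:**
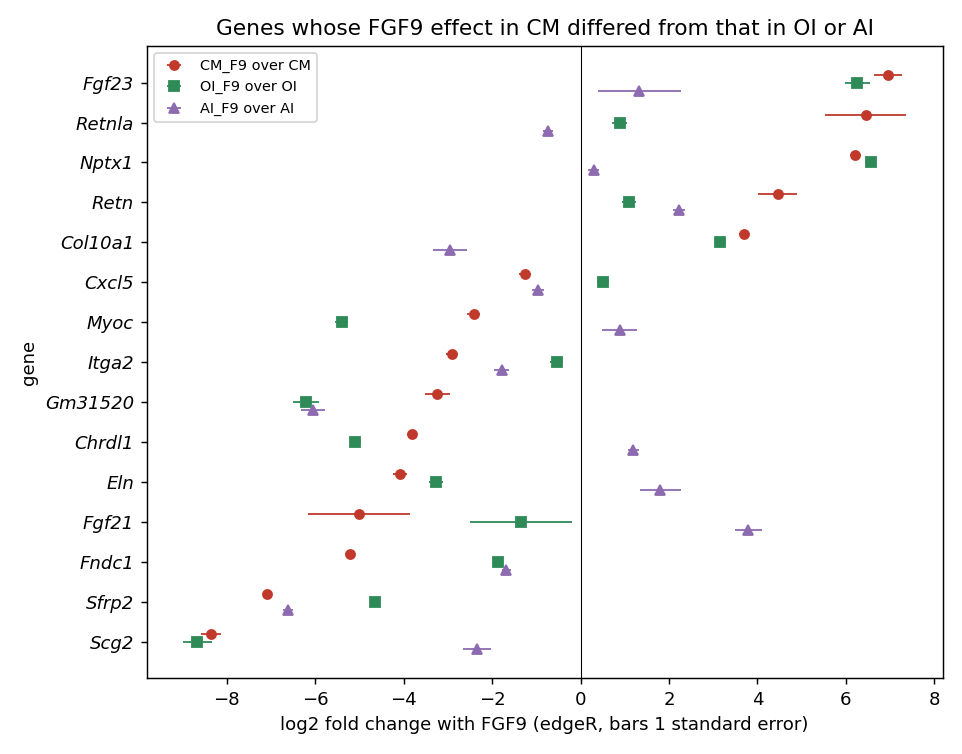
Log2 fold change with FGF9 in CM (red circles), OI (green squares) and AI (purple triangles) for 15 genes whose effect in CM differed most from that in OI or AI, with bars of 1 standard error derived from edgeR's F statistic. Col10a1, Chrdl1, Eln, Fgf21, Retnla and Myoc lie on opposite sides of 0 in CM and AI, and Fgf21 in CM_F9 and Retnla in CM had no reads, so that their fitted values depend on edgeR's prior count. The change of Myoc in AI did not pass edgeR's test (adjusted p = 0.0911). Eln in AI was near the floor, with means of 0.0733 FPKM in AI_F9 and 0.0233 FPKM in AI.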

How the data were processed

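RNA of mouse BMSCs was sequenced in 18 libraries, 3 for each of 6 groups (CM_F9, OI_F9, AI_F9, CM, OI and AI), grouped by their labels. Per the labels, the authors trimmed reads with cutadapt 1.9.1, mapped them with HISAT2 2.2.1 and counted them with HTSeq 0.6.1 on GRCm39. The annotation release and the strand setting are not given in the sources used here, so overlapping genes on opposite strands may share reads. The deposited table holds read counts per gene and the authors' FPKM, which equal the counts scaled by exonic length and by the library's counted reads within 1% for 100% of values of at least 5.

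Counts were tested with edgeR 4.0.16 in R 4.3.3 (filterByExpr over the 6 groups, TMM, a quasi-likelihood F test on all 18 samples with 12 residual degrees of freedom, Benjamini-Hochberg adjustment over 17631 genes). Each SE given is the absolute log2 fold change divided by the square root of the F statistic of its test. The common biological coefficient of variation was 7.69%. Depth was 16719561 to 20526502 counted reads for each of the 6 CM and CM_F9 libraries. Tested on simulated data for CM_F9 against CM on 17329 genes, the fit called 48% of genes raised 2-fold, 98% of those raised 4-fold, 36% of those lowered to 0.5 and 84% of those lowered to 0.25 of their level, and 1 of 17132 unchanged genes. Changes of exactly 2-fold or 0.5 lie on the fold threshold, and 74% of each passed the adjusted p. The simulated spread followed the trend over genes, with no odd gene or library. These shares are therefore not error rates of the real data. Alternatives were DESeq2 1.42.0, limma 3.58.1 on log2(FPKM + 0.1, 0.5 or 1), other scalings and filters, the 6 libraries alone, the replicate number as a block, and each library left out in turn.

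Members and the 75 gene lists were chosen with earlier results of these data known. Named were the 12 largest rises and falls that reached 5 FPKM in CM_F9 or CM without overlap, the 5 DEGs of lowest adjusted p and the 2 most abundant other members of each list, genes the study names for CM, genes that switch between under 0.5 and at least 5 FPKM, the 10 most abundant genes of each group and, per difference between media, the 4 largest in each direction. Kitl, Pecam1, Sox9, Col2a1, Cd3e, Ms4a1, Cd74, H2-Aa and H2-Ab1 lie outside this rule and were chosen after their values were seen. Some genes the rule takes are not reported here. Its step on noncoding RNAs was not applied, since the table has no biotypes. Promoter windows come from RefSeq on GRCm38.p6 and were matched by symbol, with no coordinates converted.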

Additional observations from a re-analysis of the deposited data

Results flagged for a closer look

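The FGF9 effect in CM differed from that in another medium, by a test of the difference itself, for each of the following genes named by rule. Values are log2 differences of the effect in CM minus that in the other medium, from edgeR's quasi-likelihood test with Benjamini-Hochberg adjustment. Their causes were not tested.

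Against OI, the difference was -3.36 for Fndc1, -2.44 for Sfrp2, -2.37 for Itga2 and -1.77 for Cxcl5, with adjusted p between 1.54e-11 and 1.38e-06. It was 2.98 for Myoc (adjusted p = 8.12e-09), 2.96 for Gm31520 (0.00103), 3.37 for Retn (1.25e-04) and 5.56 for Retnla (0.00137). Myocilin (Myoc) averaged 0.997 ± 0.111 FPKM in CM_F9 and 5.10 ± 0.777 FPKM in CM, and 0.677 ± 0.102 FPKM in OI_F9 and 27.8 ± 1.17 FPKM in OI (SD, n = 3), so that it was low with FGF9 in both media and its level without FGF9 was higher in OI. Retnla, a secreted protein of the resistin family, had 32 reads over the CM_F9 libraries, against 0 over the CM libraries, at least 11.6-fold higher against a floor of 3 counts over the group. In OI, Retnla averaged 8.86 ± 0.941 FPKM in OI_F9 and 4.66 ± 1.18 FPKM in OI. On log2(FPKM + 0.5) and log2(FPKM + 1) the differences of Retn and Retnla from OI were below the fold threshold, at 0.51 and 0.08 for Retn and 0.68 and 0.16 for Retnla.

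Against AI, it was -8.80 for Fgf21, -6.02 for Scg2, -5.88 for Eln and -5.01 for Chrdl1, with adjusted p between 3.20e-16 and 9.84e-07. It was 7.19 for Retnla (1.00e-06), 6.64 for Col10a1 (9.77e-13), 5.91 for Nptx1 (5.85e-17) and 5.63 for Fgf23 (0.00718). The call of Fgf23 was lost without AI replicate 1 (adjusted p = 0.0707) or AI replicate 2 (0.0714). Fgf23 was near 0 in AI_F9 and AI, at 0.0467 ± 0.0289 FPKM in AI_F9 and 0.02 ± 0.0173 FPKM in AI. Fgf21 averaged 6.61 ± 0.625 FPKM in AI_F9 and 0.543 ± 0.179 FPKM in AI, and Eln 0.0733 ± 0.00577 FPKM in AI_F9 and 0.0233 ± 0.0115 FPKM in AI, all means over 3 libraries. Scg2 was low with FGF9 in both media, at 0.13 ± 0.165 FPKM in CM_F9 and 0.19 ± 0.0436 FPKM in AI_F9. Without FGF9 it averaged 44.2 ± 1.14 FPKM in CM and 1.13 ± 0.0917 FPKM in AI. Its difference from AI was -7.93 without CM_F9 replicate 2. The fitted values of Fgf21 and Retnla depend on the prior count, since 1 of their CM groups had no reads.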

How the results depend on the processing

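On log2(FPKM + 0.5) and log2(FPKM + 1), limma called 567 and 434 genes higher and 424 and 327 lower, 185 and 123 that differed between CM and OI, and, at + 1, 1302 that differed between CM and AI, where a pseudocount draws low genes together. Under the other alternatives the 4 counts stayed within 1.5 times, and DESeq2 gave 936, 906, 296 and 2485. Without 1 library, they ranged from 910 to 982 genes higher, 878 to 928 lower, 257 to 314 that differed from OI and 2371 to 2536 from AI. No call of CM_F9 against CM reversed under any alternative, except 2 without CM_F9 replicate 2, Mx1 at -0.26 (highest 2.73, without CM_F9 replicate 3) and Rsad2 at -1.28 (highest 2.44, without CM_F9 replicate 1). Of genes not called, Pparg changed sign, at 0.00113, 0.00106 and 0.000976 with limma at + 0.1, + 0.5 and + 1. Library totals in place of TMM moved the median of all genes by 0.06. The difference in the share of mitochondrial messenger RNAs was 0.48 percentage points of counts (0.45 to 0.51 without 1 library) and 1.16 of FPKM. That of the 10 most abundant genes was -0.84 of counts (-1.04 to -0.64 without 1 library) and 3.47 of FPKM, which divides by gene length. Leaving out 1 library brought 1 or 2 genes past the thresholds in a direction in which a list had no call, lower for cholesterol, mitosis, glycolysis, HOX and skeletal factors among others, and higher for small leucine-rich proteoglycans and other dual-specificity phosphatases among others.

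Same-numbered CM_F9 and CM samples correlated by 0.023, 0.033 and 0.032 in their deviations, under 0.1, although each was the best match of its sample, a hint from the data and not the design. Same-numbered OI_F9 and OI samples correlated by 0.119, 0.145 and 0.171, all over 0.1, which bears on the differences from OI. Those of AI_F9 and AI correlated by 0.040, 0.025 and 0.140, the last over 0.1, which bears on the differences from AI. Between media, replicate 3 of OI_F9 and AI reached 0.219, replicate 3 of OI and AI 0.199, and replicate 2 of CM_F9 and OI_F9 0.113. With the replicate block 986 genes were higher, 914 lower, 328 differed from OI and 2535 from AI, and 12 of 35 interferon-stimulated genes were higher. Depth limits genes of few reads, such as Fgf9, Klb and Wnt4.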

Other observations

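Genes of cartilage and tendon, 2 further skeletal lineages, were mostly lower with FGF9. Of 18 measured chondrocyte genes 14 fell and 3 rose, with a median log2 fold change of -1.72, and of 11 tendon genes 7 fell and none rose, or up to 2 with 1 library left out. Some members, such as Col2a1 and the other collagens, also stand in the collagen lists. Sox9, the master factor of cartilage, chosen after its values were seen, had 6.16, 7.05 and 6.09 FPKM in CM_F9, against 17.9, 18.8 and 18.1 FPKM in CM (-1.57, adjusted p = 1.92e-14 by edgeR's quasi-likelihood test). Comp, a matrix protein of both tissues, fell to 57.6, 55.3 and 58.4 FPKM in CM_F9, against 266, 281 and 269.9 FPKM in CM (-2.32), and Tnmd, tenomodulin, fell by 4.62 on the log2 scale. Col10a1, given above with the collagens, rose the most of the chondrocyte genes (3.69). Prg4, lubricin of the joint surface, went the other way from Comp too, with 75.2, 70.7 and 69.2 FPKM in CM_F9, against 19.9, 21.3 and 20.6 FPKM in CM (1.74).

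Of 26 measured T-box and other positional factors 4 rose and 3 fell. Tbx2 had 4.98, 4.51 and 4.37 FPKM in CM_F9, against 1.01, 1.23 and 1.05 FPKM in CM (2.02), and Tbx3, its close relative, 5.63, 5.61 and 5.66 FPKM in CM_F9, against 1.63, 1.41 and 1.41 FPKM in CM (1.86). In both, each CM_F9 library lay above each CM library. Of 19 measured transforming growth factor beta ligands, receptors and common target genes 6 rose and 3 fell (median 0.16). Among the falls, Tgfb3 fell by 1.35 on the log2 scale.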
